A study of Mus musculus with 12 samples.

Results

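The 130 zinc finger genes examined here are the GRCm38 protein-coding genes of mouse chromosomes 7 and 13 whose symbol is Zfp followed by a number. They were 130 of 21887 protein-coding genes, with 93 on chromosome 7 and 37 on chromosome 13, and no measured value entered their choice. A gene was called clustered where the next such gene lay within 100 kb, which held for 103, and isolated otherwise, which held for 27. Accessible chromatin was mapped by ATAC-seq: the transposase Tn5 places sequencing adapters into open DNA, and the data are lists of peaks, 1 list for each library. The cells were mouse embryonic stem cells of a C57BL/6 by CAST cross (BL6xCAST), cultured on gelatin, mainly in 2i medium with LIF. All of them carried a synthetic construct on the X chromosome, synHPRT1 in 6 libraries and synHPRT1R in the other 6, each genotype with 2 clones and 3 replicates of each clone. No library of cells without a construct was analysed here, so a genotype is represented by 2 clones, and the labels do not say whether the replicates of a clone were separate cultures. The p-values therefore rest on the variation among these libraries, part or all of which can be technical.

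The lists held 38403 to 63704 peaks in synHPRT1 libraries and 41737 to 58099 in synHPRT1R libraries. They hold no read counts, so the depth behind them is unknown, and a gene without a listed peak is a gene at which none was detected rather than one shown to be closed. Of 10 embryonic stem cell markers, 6 had a peak at a gene end in all 12 libraries, among them Nanog, Sox2, Klf4 and Tfcp2l1. Dppa4 had one in 10, Lin28a in 7, Pou5f1 in 6 and Esrrb in 1, although Esrrb had a peak inside the gene in all 12. None of 8 fibroblast or feeder markers had a peak at a gene end in all 12, although Col1a1 had one in 11 and Col1a2 in 8, and 4 of the 8 had none. Of those 4, Col3a1 had a peak inside the gene in 8 libraries, Fap in 7, Lum in 1 and Postn in none. None of 6 genes of other tissues had a peak at a gene end in all 12, and Ckm had one in 9. The part that other cells may have in the peaks at zinc finger genes was not tested.

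Most genes of this kind encode proteins that read DNA with a tandem array of C2H2 zinc fingers, and many carry a KRAB domain as well. KRAB zinc finger proteins recruit the corepressor TRIM28, which brings the histone methyltransferase SETDB1 and heterochromatin proteins to the bound site, and in embryonic stem cells this machinery is known for silencing retroelements. Their genes arose largely by tandem duplication and lie in clusters of close relatives. The symbol Zfp also covers genes of other kinds, such as Zfp36, which encodes an RNA-binding protein that promotes the decay of mRNAs with AU-rich elements.

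Chromatin was open at an end of most of these genes in every library. An end peak, meaning a peak within 1 kb of either gene end, was listed in all 12 libraries for 85 of the 130 genes (65.4%), in 1 to 11 libraries for 31 (23.8%) and in none for 14 (10.8%). Of the 21757 other protein-coding genes, 48.0% had an end peak in all 12 libraries, 20.2% in 1 to 11 and 31.7% in none. The difference lay more in the genes without a peak than in those with a variable one. Of the 2729 other genes of the same 2 chromosomes, 41.9% had an end peak in all 12 libraries and 40.5% in none. The 267 Zfp genes of the other chromosomes were at 70.4% and 5.99%, so a high share of open ends was not particular to chromosomes 7 and 13. In a single library the share of the 130 genes with an end peak was 81.0% ± 3.60 in synHPRT1 and 79.2% ± 2.96 in synHPRT1R (mean ± SD, n = 6 libraries each). For the other genes it was 59.7% ± 3.20 in synHPRT1 and 59.0% ± 1.87 in synHPRT1R. The lowest library for the zinc finger genes, at 73.8%, lay above the highest for the other genes, at 63.3%.

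**Figure D1:**
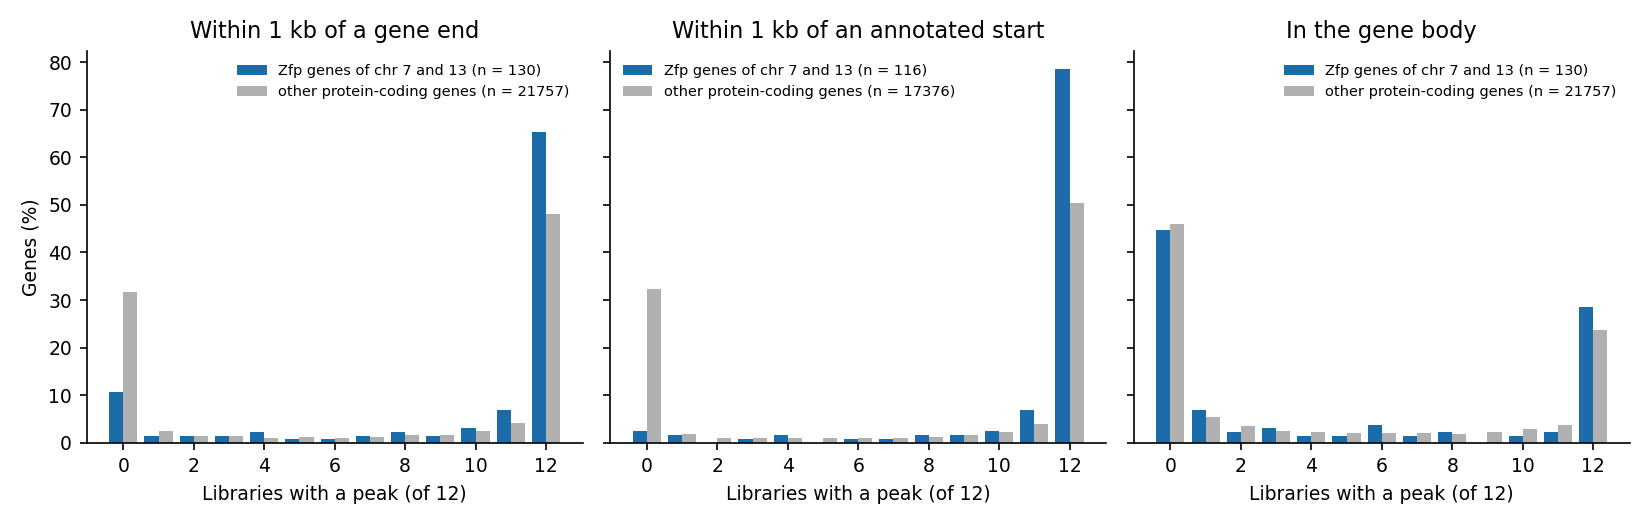
Share of genes (%) by the number of libraries, of 12, with a peak at an end (within 1 kb), at an annotated start (within 1 kb) and in the gene body. Blue bars are the Zfp genes of chromosomes 7 and 13 and grey bars the other protein-coding genes. At ends, 65.4% of the Zfp genes and 48.0% of the others stand at 12 libraries, and at annotated starts 78.4% and 50.4%, while in bodies 28.5% and 23.6% do.

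Open chromatin sat at the 5′ end of the genes and hardly at the 3′ end. A strand and at least 1 annotated start were found in the RefSeq table of starts (GRCm38.p6) for 116 of the 130 genes. Of these 116, the outermost 5′ end was open in all 12 libraries for 75, and the 3′ end for 4. In a single library, 81.0% ± 4.12 of the 5′ ends and 8.33% ± 1.69 of the 3′ ends had a peak in synHPRT1, and 79.4% ± 3.29 and 6.61% ± 1.30 in synHPRT1R. The other genes had a peak at 57.3% ± 2.87 of their 5′ ends and 9.81% ± 1.9 of their 3′ ends in synHPRT1, and at 56.7% ± 1.67 and 8.89% ± 1.16 in synHPRT1R. The excess over other genes was thus seen at the 5′ side.

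Taking each annotated start in place of the outer gene end brought more of the genes to all 12 libraries. A peak lay within 1 kb of an annotated start in all 12 libraries for 91 of 116 genes (78.4%), in 1 to 11 for 22 and in none for 3 (2.59%). The same held in all 12 libraries for 8755 of 17376 other genes (50.4%), and 32.3% of those had none. Among the Zfp genes of other chromosomes it held for 173 of 215 (80.5%), so the high share was not particular to the genes examined here. The 3 genes without any start peak were Zfp235, Zfp626 and Zfp541, the last of which encodes a protein of meiotic male germ cells. Summits within 1 kb of a start lay a median of 16.5 bp upstream of it in synHPRT1 libraries (-16.5 ± 9.40 bp, SD, n = 6) and 15.3 bp upstream in synHPRT1R libraries (-15.3 ± 6.06 bp). Of those summits, 85.2% ± 2.21 in synHPRT1 and 85.8% ± 2.45 in synHPRT1R were within 250 bp of the start.

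**Figure D2:**
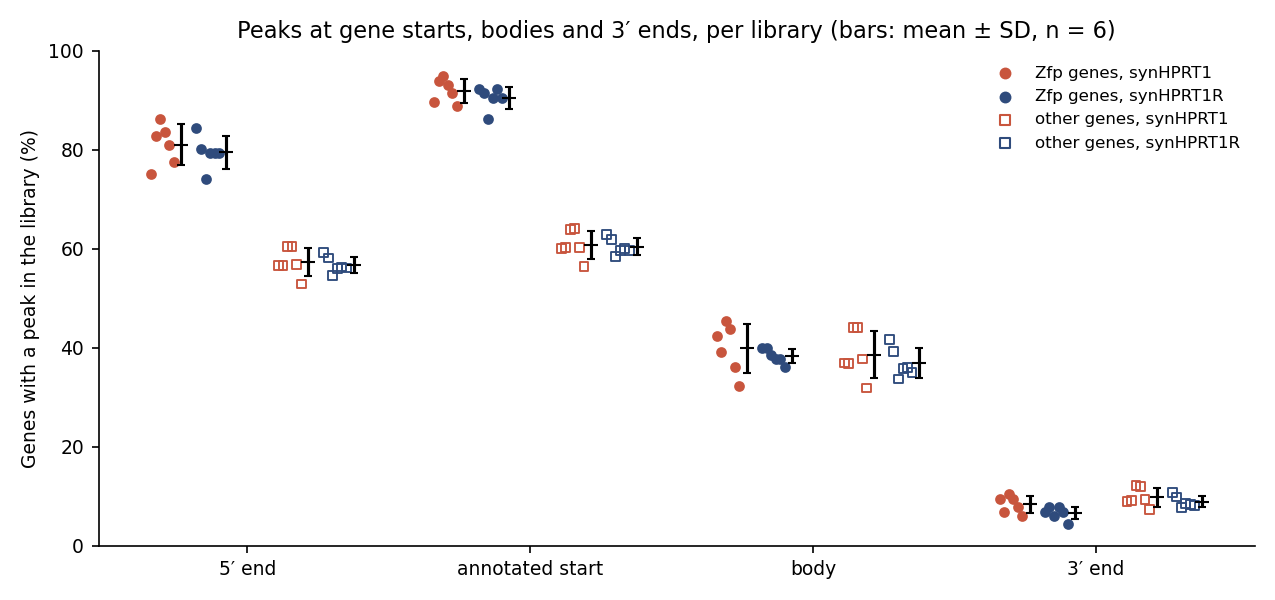
Share of genes (%) with a peak at the 5′ end, at an annotated start, in the body and at the 3′ end. Each point is 1 library, filled for the 116 Zfp genes with a strand (130 in the body column) and open for the other protein-coding genes, and bars give mean ± SD over 6 libraries. The Zfp genes stand above the others at the 5′ end and the annotated start, and beside them in the body and at the 3′ end.

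The bodies of the genes had a peak about as often as those of all other genes, more often than those of other genes on the same chromosomes, and held more peaks per length than either. A body peak, more than 1 kb from both ends, was listed in all 12 libraries for 37 of the 130 genes (28.5%) and in none for 58 (44.6%), against 23.6% and 46.0% of the other genes. The median gene length was 15.6 kb for the zinc finger genes and 17.2 kb for the others. Per library, 39.9% ± 4.97 of the zinc finger genes had a body peak in synHPRT1 and 38.3% ± 1.49 in synHPRT1R, against 38.6% ± 4.76 and 36.9% ± 2.96 of the other genes. Of the other genes of chromosomes 7 and 13, 32.9% ± 4.13 had one in synHPRT1 and 31.5% ± 2.16 in synHPRT1R, 19.8% had one in all 12 libraries, and their median length was 11.3 kb. Counted by length, bodies of zinc finger genes held 0.318 ± 0.0644 peaks per 10 kb in synHPRT1 and 0.297 ± 0.0239 in synHPRT1R, bodies of other genes 0.207 ± 0.0490 and 0.189 ± 0.0291, and those of other genes of the same chromosomes 0.224 ± 0.0506 and 0.203 ± 0.0305. Zfp genes of other chromosomes had 0.346 ± 0.0757 in synHPRT1 and 0.323 ± 0.0456 in synHPRT1R. Each density pools all bodies of its class, so long genes weigh most in it, and gene length was not matched. The pooled bodies spanned 2650 kb in the 130 zinc finger genes and 1006550 kb in the 21757 other genes. In the 2729 other genes of the same chromosomes they spanned 92505 kb. The windows at the ends held 2.25 ± 0.123 peaks per 10 kb for the zinc finger genes in synHPRT1 and 2.18 ± 0.0717 in synHPRT1R. In every library the share of zinc finger genes with an end peak exceeded the share with a body peak, by 41.0 percentage points on average. Every zinc finger gene had an end or a body peak in at least 1 library, while 4977 of the 21757 other genes had neither in any library. Of the 267 Zfp genes of other chromosomes 3 had neither, so this was not particular to chromosomes 7 and 13. An end or a body peak was listed in all 12 libraries for 108 of the 130 (83.1%) and for 58.3% of the other genes.

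Part of the body signal lay at starts inside the gene. Of the peaks in bodies, 32.6% ± 5.64 in synHPRT1 and 33.7% ± 3.14 in synHPRT1R lay within 1 kb of an annotated start, against 16.3% ± 1.94 and 16.8% ± 1.12 for the bodies of other genes. Counting only peaks that reached no end window, the zinc finger genes held 20.5 ± 1.22 such peaks near a start of their own per synHPRT1 library and 21.3 ± 1.63 per synHPRT1R library. A further 54.2 ± 15.8 peaks in synHPRT1 and 48.5 ± 6.47 in synHPRT1R lay away from every annotated start. The peaks near a start were the stronger ones, with a median fold enrichment, as the authors' peak caller gave it for each peak, of 6.35 ± 0.238 in synHPRT1 and 6.30 ± 0.498 in synHPRT1R. Away from starts it was 4.93 ± 0.679 in synHPRT1 and 4.85 ± 0.196 in synHPRT1R.

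The 14 genes without an end peak in any library show this most plainly. They were Zfp583, Zfp446, Zfp235, Zfp59, Zfp790 and Zfp536 on chromosome 7, and Zfp934, Zfp708, Zfp759, Zfp458, Zfp595, Zfp459, Zfp874b and Zfp366 on chromosome 13. All but Zfp59 and Zfp366 had a body peak in all 12 libraries. Zfp59 had one in 4 of 6 synHPRT1 and all 6 synHPRT1R libraries. Zfp366, whose product DC-SCRIPT is known from dendritic cells, had one in 1 synHPRT1 and 3 synHPRT1R libraries. Of the 11 with a listed start, 9 had a peak at a start in all 12 libraries, Zfp59 had one in 3 and Zfp235 in none. Their open start lay inside the span that the outermost annotated ends define, 1988 bp from the outer 5′ end in Zfp874b, 4287 bp in Zfp536, which encodes a repressor of neuronal differentiation, and 21884 bp in Zfp459.

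Sequences upstream of 5 starts are given here, since the results turn on which start of a gene was open. Each is the 250 bases before the start, from RefSeq (GRCm38.p6), 5′ to 3′ on the strand of the gene. Capitals mark 2 motifs on either strand, ACTACANTTCCC and CCGGAA, both described further on. Zfp748 and Zfp110 had the highest median fold among the genes with an end peak in all 12 libraries, and Zfp110 encodes a protein known for binding the p75 neurotrophin receptor. Zfp748 is on the minus strand, before its start at chr13:67553153-67553402, and Zfp110 on the plus strand, at chr7:12834511-12834760.
Zfp748: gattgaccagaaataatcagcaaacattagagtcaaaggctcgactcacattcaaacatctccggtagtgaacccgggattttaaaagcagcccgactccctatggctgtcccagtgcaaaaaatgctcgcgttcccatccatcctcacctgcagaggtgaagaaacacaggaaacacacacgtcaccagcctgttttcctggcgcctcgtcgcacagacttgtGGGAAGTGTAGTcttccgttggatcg
Zfp110: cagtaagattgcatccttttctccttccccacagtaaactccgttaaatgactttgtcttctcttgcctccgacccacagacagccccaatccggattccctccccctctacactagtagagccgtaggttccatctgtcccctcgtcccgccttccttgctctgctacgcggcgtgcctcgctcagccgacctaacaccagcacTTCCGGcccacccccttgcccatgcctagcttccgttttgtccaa
Zfp708, a KRAB zinc finger gene whose protein binds a class of retroelements, has 2 listed starts 16431 bp apart, both on the minus strand. The inner one, at chr13:67081546-67081795, had a peak in all 12 libraries, and the outer one, at chr13:67097977-67098226, in none.
Zfp708, inner start: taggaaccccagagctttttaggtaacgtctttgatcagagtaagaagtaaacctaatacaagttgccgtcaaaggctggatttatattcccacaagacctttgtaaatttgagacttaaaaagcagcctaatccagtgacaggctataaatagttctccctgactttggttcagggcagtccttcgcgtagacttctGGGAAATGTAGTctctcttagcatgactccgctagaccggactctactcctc
Zfp708, outer start: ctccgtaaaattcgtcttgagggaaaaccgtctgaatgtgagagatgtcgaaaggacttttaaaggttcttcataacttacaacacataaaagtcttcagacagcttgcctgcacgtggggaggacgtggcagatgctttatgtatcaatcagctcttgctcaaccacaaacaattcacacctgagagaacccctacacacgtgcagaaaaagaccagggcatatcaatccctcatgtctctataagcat
Zfp583, on the minus strand at chr7:6330435-6330684, had no end peak but a peak within 1 kb of its listed start in all 12 libraries, 2521 bp inside the outer 5′ end.
Zfp583: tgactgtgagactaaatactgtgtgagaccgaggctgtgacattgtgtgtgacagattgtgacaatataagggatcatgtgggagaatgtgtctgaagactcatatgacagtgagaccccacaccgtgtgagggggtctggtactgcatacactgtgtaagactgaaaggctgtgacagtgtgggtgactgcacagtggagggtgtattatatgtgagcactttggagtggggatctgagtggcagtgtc
The inner start of Zfp708 and the start of Zfp748 each held the 12-letter motif once, and the outer start of Zfp708 did not. The window of Zfp583 held 2 CpG dinucleotides and neither motif, against 12 CpG in that of Zfp748 and 13 in that of Zfp110.

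Where the end peak was present in all 12 libraries, it was about as strong as at other genes and narrower. The median fold of the strongest end peak over the 85 genes was 7.61 ± 0.378 in synHPRT1 and 7.35 ± 0.405 in synHPRT1R, and 7.38 ± 0.291 and 7.17 ± 0.319 over the 10451 other genes (mean ± SD of the library medians, n = 6 each). Its median width was 757 ± 94.1 bp in synHPRT1 and 714 ± 45.9 bp in synHPRT1R, and for the other genes 838 ± 94.5 bp and 807 ± 55.9 bp. At 188 Zfp genes of other chromosomes it was 783 ± 68.1 bp and 759 ± 40.6 bp, so narrower peaks were not particular to the genes examined here. Zfp748 led with folds of 9.01 to 13.9 (median 12.2) in synHPRT1 libraries and 8.97 to 12.2 (median 11.7) in synHPRT1R libraries. The ranges of both genotypes overlapped, with the highest synHPRT1 fold above that of every synHPRT1R library. Zfp110 followed with 9.11 to 12.1 (median 11.3) in synHPRT1 and 11.2 to 11.9 (median 11.3) in synHPRT1R. Zfp511, Zfp128 and Zfp322a, the last a gene known for a role in pluripotency, had median folds of 11.2, 10.98 and 10.5 over all libraries, and Zfp606, Zfp977 and Zfp418 had 10.2, 10.0 and 10.00.

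At the low end were Zfp526, Zfp568, Zfp524 and Zfp729b. Zfp526 had folds of 2.96 to 4.39 (median 3.56) in synHPRT1 and 3.10 to 5.45 (median 4.14) in synHPRT1R. Zfp568, whose KRAB protein represses a placental transcript of Igf2 in mice, had 3.99 to 5.03 (median 4.19) in synHPRT1 and 3.74 to 6.12 (median 4.54) in synHPRT1R. Weak end peaks were thus found again in every library at these genes. Zfp729b and its near-identical neighbour Zfp729a, 3052 bp away, had median folds of 5.41 and 7.91 in synHPRT1 and 4.22 and 7.94 in synHPRT1R. How reads that map to both copies were handled is not stated in the sources used here, so the values of such pairs, which also include Zfp874a with Zfp874b and Zfp607a with Zfp607b, are uncertain.

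Among the better-known genes, Zfp143, which encodes an activator of snRNA and mRNA genes, had an end peak in all 12 libraries with folds of 7.45 to 9.15 (median 8.33) in synHPRT1 and 7.44 to 8.23 (median 7.81) in synHPRT1R. Zfp367 had 6.01 to 7.53 (median 7.07) in synHPRT1 and 6.42 to 7.69 (median 7.12) in synHPRT1R. Zfp346, which encodes a binder of double-stranded RNA, had 4.75 to 5.95 (median 5.52) in synHPRT1 and 4.03 to 8.26 (median 5.50) in synHPRT1R, and Zfp260 had medians of 5.14 and 5.45. All 4 were open at an end in every library. Zfp36 had an end peak in 5 of 6 synHPRT1 and 4 of 6 synHPRT1R libraries, and Zfp30 in 2 and 4. Zfp369, a relative of Zfp110, had an end peak in 2 synHPRT1 and 3 synHPRT1R libraries but a body peak in all 12.

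The clustered genes formed 17 runs in which each gene lay within 100 kb of the next, and 10 runs held at least 4 genes and 88 genes together. The longest run reached from Zfp712 to Zfp273 on chromosome 13 (chr13:67038594-67827000) and held 23 genes over 788 kb. This cluster is known for the regulator of sex-limitation genes, which encode KRAB zinc finger repressors of sex-biased liver genes. Of its 23 genes, 16 had an end peak in all 12 libraries, 6 had none and Zfp65 had one in 11. Every one of the 23 had an end or a body peak in all 12 libraries. A start was listed for 20 of them, and 19 of these starts or sets of starts were open in all 12 libraries, the exception again being Zfp65 with 11. The 6 genes without an end peak all had a peak at an inner start and in the body in every library.

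**Figure D3:**
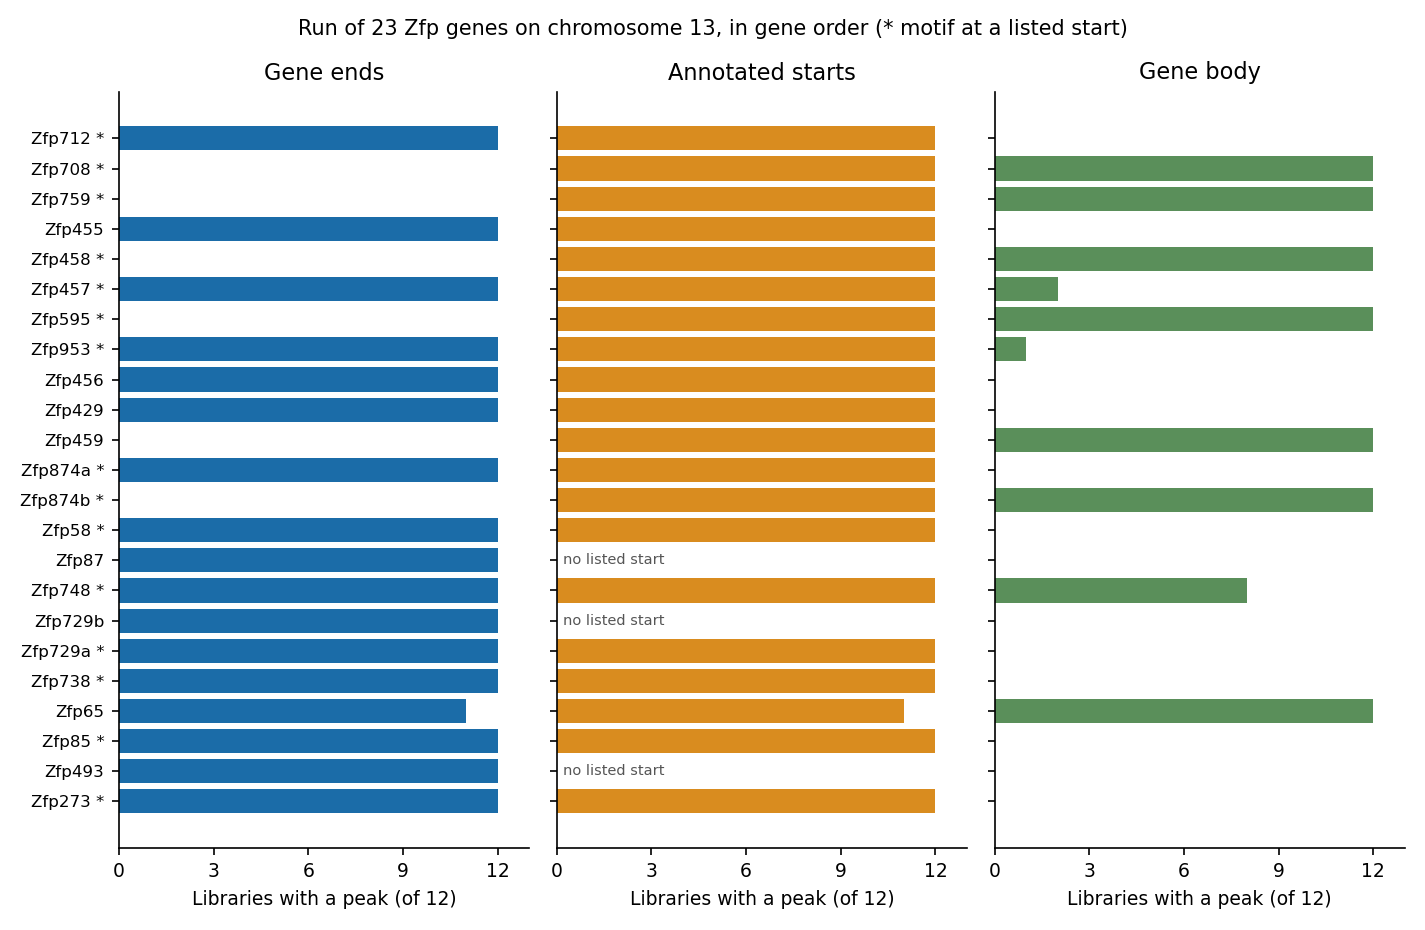
Number of libraries, of 12, with a peak at a gene end (blue), at an annotated start (orange) and in the gene body (green) for the 23 genes from Zfp712 to Zfp273, in their order along chromosome 13. An asterisk marks genes with the 12-letter motif at a listed start; the 6 genes with no bar at the ends have bars of 12 at the starts and in the body.

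On chromosome 7, the run from Zfp84 to Zfp146 held 15 genes over 401 kb, with an end peak in all 12 libraries at 9, in 1 to 11 at 5 and in none at Zfp790. From Zfp180 to Zfp94 there were 10 genes, 6 of them with an end peak in all 12 libraries. The run from Zfp607b to Zfp850 stood apart, with an end peak in all 12 libraries at 2 of 8 genes and in 1 to 11 at 5. It also held the fewest peaks by length of these 3, at 2.59 ± 0.568 per 100 kb in synHPRT1 and 2.1 ± 0.504 in synHPRT1R, against 6.69 ± 0.820 and 6.26 ± 0.902 from Zfp180 to Zfp94 and 5.50 ± 1.29 and 5.21 ± 0.471 from Zfp84 to Zfp146. In the chromosome 13 run the density was 4.85 ± 0.478 in synHPRT1 and 4.47 ± 0.273 in synHPRT1R, and 68.3% ± 7.11 and 70.9% ± 4.05 of its peaks lay within 1 kb of an end or start of one of its zinc finger genes. Of the shorter runs, Zfp628 to Zfp580 had an end peak in all 12 libraries at 5 of 6 genes, Zfp787 to Zfp28 at 5 of 6, Zfp329 to Zfp446 at 4 of 5, Zfp954 to Zfp772 at 3 of 4, Zfp141 to Zfp975 at 3 of 4 and Zfp553 to Zfp689 at 3 of 7. In 3 pairs of neighbours, Zfp784 with Zfp580, Zfp78 with Zfp28 and Zfp668 with Zfp646, 1 peak served an end of both genes in all 12 libraries, and 13 of the 130 genes had an end of another gene outside this set within 1 kb of their own.

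Clustered and isolated genes were open at their ends about equally often. An end peak was listed in all 12 libraries for 68 of 103 clustered genes (66.0%) and 17 of 27 isolated genes (63.0%), and in none for 12 and 2. Per library, 82.4% ± 3.16 of clustered and 75.9% ± 6.09 of isolated genes had an end peak in synHPRT1, and 80.4% ± 3.39 and 74.7% ± 4.33 in synHPRT1R. The difference of 6.08 percentage points over the 12 libraries did not keep its direction on both chromosomes. On chromosome 7 it was 12.5 points, with 84.1% of clustered and 71.6% of isolated genes. On chromosome 13 it was -7.90 points, with 73.8% of 27 clustered and 81.7% of 10 isolated genes. Counted at annotated starts, the chromosome 13 genes were open almost throughout, at 99.6% ± 1.26 of 23 clustered and 96.9% ± 5.65 of 8 isolated genes (SD, n = 12 libraries). On chromosome 7 the start was open at 89.9% ± 3.21 of 69 clustered and 82.3% ± 4.49 of 16 isolated genes. The isolated groups are small, and 1 gene of 8 is 12.5 points.

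**Figure D4:**
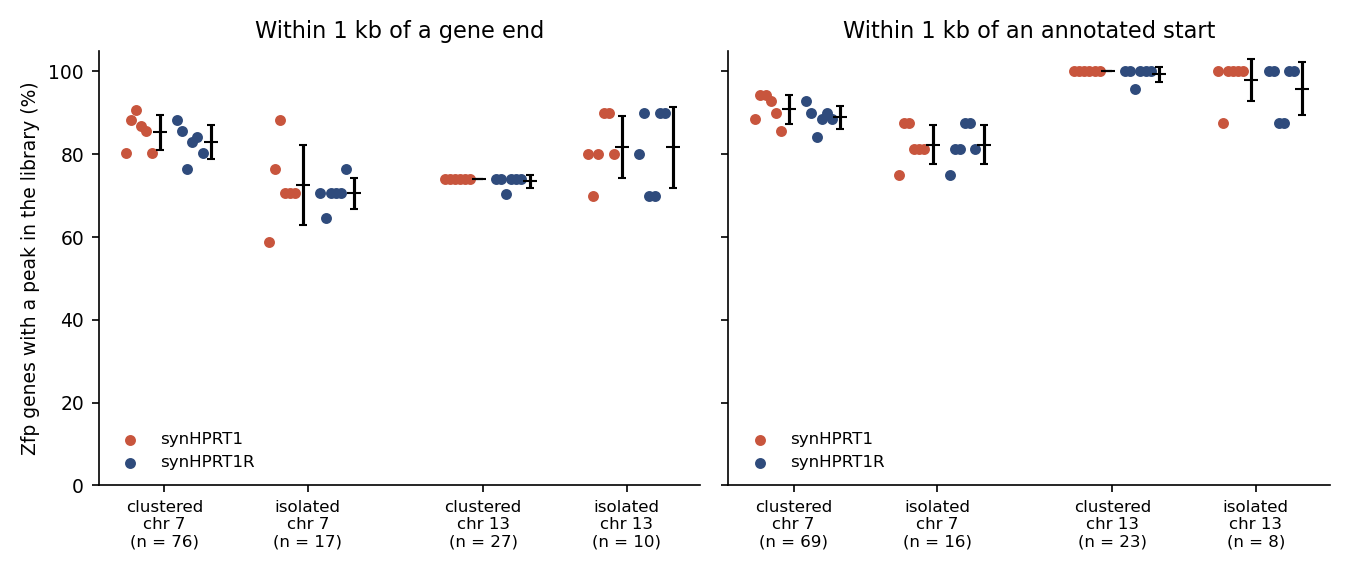
Share of Zfp genes (%) with a peak at an end (left) and at an annotated start (right), for clustered and isolated genes of chromosomes 7 and 13. Each point is 1 library, synHPRT1 in red and synHPRT1R in blue, and bars give mean ± SD over 6 libraries; at ends, clustered genes stand above isolated ones on chromosome 7 (84.1% and 71.6% over all libraries) and below them on chromosome 13 (73.8% and 81.7%).

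Bodies of clustered genes held more peaks by length. There were 0.391 ± 0.0687 body peaks per 10 kb in clustered and 0.212 ± 0.0658 in isolated genes in synHPRT1, and 0.361 ± 0.0315 and 0.205 ± 0.0179 in synHPRT1R. The share of genes with a body peak in all 12 libraries was 28.2% in clustered and 29.6% in isolated genes. The median gene length was 14.9 kb in clustered and 20.2 kb in isolated genes. The bodies of the isolated genes spanned 1084 kb together. A large part of that is the single gene Zfp536, 456 kb long, with 0.158 body peaks per 10 kb. The highest body density was that of Zfp688, with 4.39 peaks per 10 kb, followed by Zfp93 with 2.67, Zfp575 with 2.08 and Zfp428 with 2.01. All 4 are clustered genes of chromosome 7, and the isolated Zfp574 followed, also with 2.01. Such values rest on few peaks in short bodies. Zfp688 is 4.28 kb long and had 1 body peak per library, in no library away from an annotated start. Zfp575 is 4.00 kb long and had 0.417 body peaks per library. End peaks were narrower in clustered genes, at 728 ± 97.7 bp against 867 ± 122 bp in synHPRT1 and 668 ± 63.9 bp against 849 ± 32.0 bp in synHPRT1R.

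The starts of these genes were open at a lower CpG content than the starts of other genes. CpG-rich promoters are widely open in most cell types, and CpG-poor ones usually only where their gene is active. In the 300 bases at each listed start (250 before it and 50 after), the median CpG count was 13 for the 133 starts of zinc finger genes and 13 for the 21122 starts of other genes. Among starts open in all 12 libraries it was 14 for the 101 starts of zinc finger genes and 22 for the 10199 of other genes, with a GC content of 54.3% and 62.3%. Of starts with 5 to 9 CpG, 26 of 35 (74.3%) were open in all 12 libraries at zinc finger genes and 25.5% of 3123 at other genes. With 0 to 4 CpG the counts were 5 of 11 (45.5%) and 4.78% of 6020, the 5 being starts of Zfp72, Zfp583, Zfp418, Zfp788 and Zfp710. With 10 to 19 CpG they were 44 of 57 (77.2%) and 67.6% of 4369, and at 20 or more CpG 86.7% of 30 and 80.9% of 7610, so the gap was widest among the starts with fewer than 10 CpG. Zfp genes of other chromosomes were not counted by CpG range. Of their 140 starts without the letters GGGCGG on either strand (median 10 CpG), 74.3% were open in all 12 libraries. At the zinc finger genes examined here it was 69.4% of 85 (median 10 CpG), and at non-Zfp genes 26.9% of 11207 (median 4 CpG). The high share at such starts was thus not particular to the genes examined here. Starts of 1 gene, and starts of close relatives, share sequence and are not independent.

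A 12-letter motif recurred at the starts of the clustered genes. It was noticed in the sequences of Zfp748 and Zfp708 shown above, so its counts are a description and were given no test. The letters ACTACANTTCCC, searched on both strands with N for any base, were found in the 300 bases at 36 of 133 starts of zinc finger genes (27.1%), 1 for each of 36 genes, and at 239 of 21122 starts of other genes (1.13%). Among starts of Zfp genes on other chromosomes the share was 4.85% (13 of 268). All 36 belonged to clustered genes, which makes 36.7% of their 98 starts and none of the 35 starts of isolated genes. The share was 42.1% on chromosome 13 and 21.1% on chromosome 7. The letters are the core of a promoter element described in human cells as a site of ZNF143 and THAP11, and the mouse counterpart of ZNF143 is encoded by Zfp143, itself 1 of the 130 and isolated.

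Most matches lay in 3 of the runs. The motif was found at 15 of 20 genes with a listed start from Zfp712 to Zfp273, at 10 of 14 from Zfp84 to Zfp146, at 6 of 9 from Zfp180 to Zfp94 and at 2 of 8 from Zfp607b to Zfp850. In the runs from Zfp787 to Zfp28 and from Zfp329 to Zfp446 it was found at 1 gene each, and in the other 4 runs of at least 4 genes at none. The remaining gene with the motif was Zfp72, in the run of 2 genes from Zfp72 to Zfp825. The first match of each of the 6 runs of at least 4 genes with one is shown to let the shared letters be compared, with the motif in capitals and 9 bases on either side, on the strand that reads ACTACA (GRCm38.p6).
Zfp28, chr7:6383164-6383193, plus strand: ccgctggggACTACACTTCCCagggggcct
Zfp128, chr7:12881153-12881182, minus strand: gacactgagACTACAATTCCCagaaggcca
Zfp180, chr7:24081865-24081894, minus strand: ctcaatggaACTACAATTCCCagaactctc
Zfp60, chr7:27731335-27731364, plus strand: gcactcggcACTACATTTCCCaggggctac
Zfp84, chr7:29768520-29768549, minus strand: ttatagtggACTACATTTCCCagaaggcgg
Zfp712, chr13:67061206-67061235, plus strand: gcggacgagACTACATTTCCCacaattctc
Of 39 matches, 32 read ACTACA on the strand opposite to the gene. Their centre lay a median of 49.5 bp upstream of the start (-49.5 bp, quartiles -70.0 and -28.0).

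Each of the 36 starts of zinc finger genes with the motif was open in at least 8 libraries. Of the 36, 31 (86.1%) had a peak in all 12 libraries and 5 in 8 to 11, namely those of Zfp940 (8), Zfp111 and Zfp780b (10) and Zfp383 and Zfp14 (11). Of the 97 starts of zinc finger genes without it, 70 (72.2%) had a peak in all 12 libraries and 6 in none. On chromosome 13 alone the counts were 16 of 16 with the motif and 17 of 22 without it. On chromosome 7 they were closer, at 15 of 20 with it and 70.7% without it. At other genes the shares were 206 of 239 (86.2%) with the motif and 47.9% without it. Zfp genes of other chromosomes, which are among these other genes, went the other way. Of their starts, 8 of 13 (61.5%) with the motif and 201 of 255 (78.8%) without it were open in all 12 libraries. Among zinc finger starts with fewer than 10 CpG, 15 of 16 with the motif and 16 of 30 without it were open in all 12 libraries. For other genes in the same range of CpG these were 19 of 27 and 11.7% of 9116. From 10 CpG upward the shares for zinc finger starts were 80.0% of 20 with and 80.6% of 67 without the motif. Among the zinc finger genes, peaks at starts with the motif had a median fold of 7.25 ± 0.195 against 7.74 ± 0.481 without it in synHPRT1 and 6.92 ± 0.700 against 7.62 ± 0.356 in synHPRT1R. At other genes the medians were 8.95 ± 0.362 with and 7.39 ± 0.281 without it in synHPRT1. The summit of the strongest peak lay within 100 bp of the motif's centre for 66.1% ± 13.2 of the 31 starts in synHPRT1 libraries and 60.8% ± 4.75 in synHPRT1R libraries. The median distance was 65.8 ± 28.6 bp in synHPRT1 and 74.0 ± 11.5 bp in synHPRT1R. Measured from the start, these summits lay at a median of -10.0 ± 15.7 bp and 2.17 ± 11.4 bp. The motif's centre lay a median of 49.5 bp from the start, so a summit at the start can also fall within 100 bp of it.

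**Figure D5:**
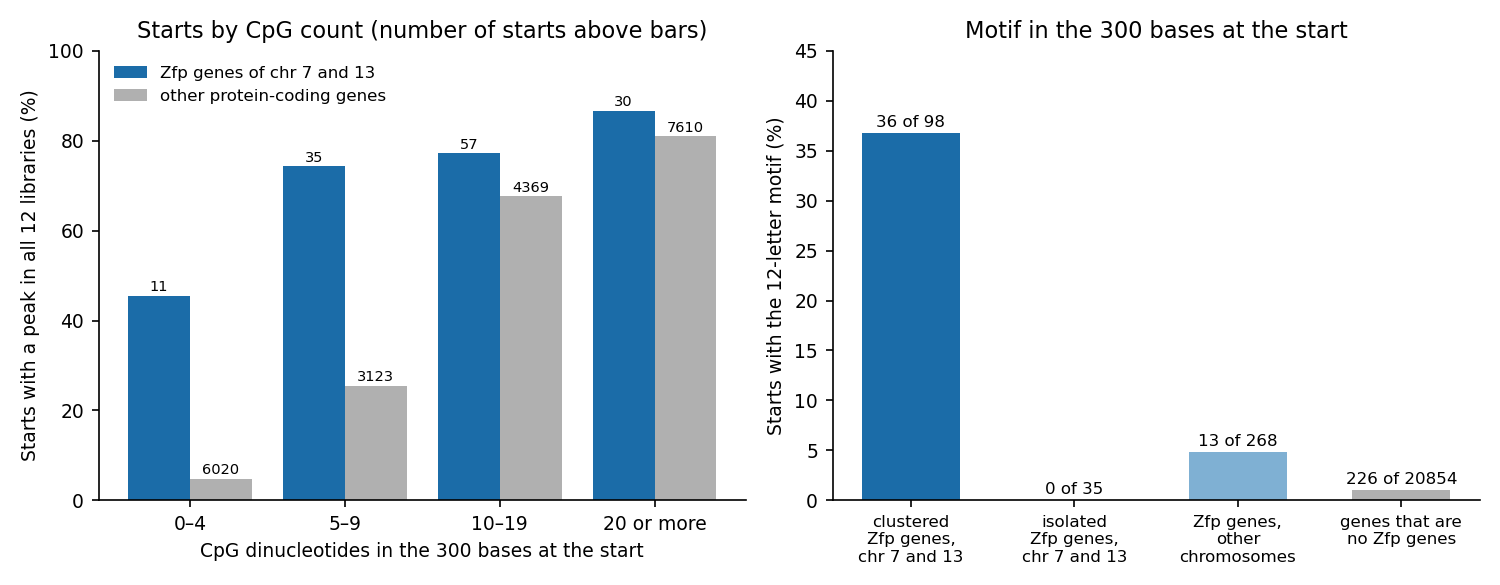
Left, share of annotated starts (%) with a peak in all 12 libraries by CpG count in the 300 bases at the start, for the Zfp genes of chromosomes 7 and 13 (blue) and other protein-coding genes (grey), with the number of starts above each bar; at 5 to 9 CpG the shares are 74.3% and 25.5%. Right, share of starts (%) that hold the 12-letter motif, at 36 of 98 starts of clustered and 0 of 35 starts of isolated Zfp genes.

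Of 7 further motifs searched on both strands, CCGGAA, the core of ETS factor sites, was found at 36.1% of zinc finger starts and 18.6% of other starts, and at 34.3% of the starts of Zfp genes on other chromosomes, so this excess was shared by them. TGACGTCA, the cyclic AMP response element, was found at 7.52% and 2.2%, and GCATGCGC, a core of NRF1 sites, at 9.02% and 3.48%. Zfp genes on other chromosomes had these at 1.87% and 2.99% of starts. TGACGTCA was found at 7 of 38 starts on chromosome 13 (18.4%) and at 3 of 95 on chromosome 7 (3.16%), the latter all of 1 gene. The GC box GGGCGG was found at 36.1% and 46.3%, the TATA box TATAAA at 6.77% and 12.6%, CCAAT at 42.1% and 38.2%, and AAGATGGCG, a core of YY1 sites, at 1.5% and 1.83%. None of these contains ACTACANTTCCC or is contained in it, and a match is a description of the sequence only.

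Between the genotypes, no zinc finger gene was called. A gene was tested at its ends by a two-sided Fisher's exact test on the number of libraries with a peak where that number was 1 to 11, which left 31 of the 130 genes, since a gene with 12 or 0 cannot differ. Of 4430 genes tested at ends over the whole genome, 0 passed an adjusted p of 0.05 (0% called), and 12 had an unadjusted p under 0.05, all with more synHPRT1 libraries. None of those 12 was a zinc finger gene of these chromosomes. In bodies 6653 genes were tested, 35 of them zinc finger genes, with 0 called (0%) and 22 at an unadjusted p under 0.05, again none of the 35. An exact test within replicate numbers also called 0 in both places and gave 12 and 22. The smallest p that 6 libraries against 6 can give is 0.00216, and it would take 192 fully separated genes at ends, or 289 in bodies, for such a p to pass the adjustment. A single gene could therefore not have been called alone.

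The genes with a variable end peak included both directions. Of the 31, 17 had an end peak in more synHPRT1 libraries, 9 in more synHPRT1R libraries and 5 in equal numbers. Of the 35 genes with a variable body peak, 18 had it in more synHPRT1 libraries, 10 in more synHPRT1R libraries and 7 in equal numbers. These tallies over genes were not tested. The synHPRT1 peak lists were also longer, with a median of 48711 peaks against 45817.5 in synHPRT1R (n = 6 libraries each). How far list length shifts these tallies, or the direction of the genes with an unadjusted p under 0.05, was not tested. The most uneven was Zfp61, with an end peak in 4 of 6 synHPRT1 and 0 of 6 synHPRT1R libraries (Fisher's exact p = 0.0606, not adjusted). That peak lay at the 3′ end of Zfp61, with a median fold of 4.21, and the outer 5′ end had a peak in 0 libraries. The start and the body of Zfp61 had a peak in all 12. In bodies the most uneven was Zfp628, with 5 and 1 (exact p = 0.0801, not adjusted). Nearest to an end peak in 6 of the 12 libraries, whatever their genotype, were Zfp30 with 2 synHPRT1 and 4 synHPRT1R libraries, Zfp607a and Zfp688 with 4 and 3, Zfp369 with 2 and 3, Zfp773 with 4 and 4, Zfp575 and Zfp974 with 3 and 1, Zfp940 with 3 and 5 and Zfp936 with 5 and 3. Zfp169 had an end peak in 5 and 4 libraries, Zfp541 and Zfp629 in 1 and 2, and Zfp579 in 1 and 1. The strength of those peaks was low in most, with a median fold of 3.39 for Zfp30, 3.46 for Zfp579, 4.12 for Zfp974 and 4.34 for Zfp541, although it was 9.78 for Zfp369. Among the libraries, the share of the 130 genes with an end peak moved with the length of the peak list, which was not separated from other differences between libraries. With all lists shortened to the 38403 strongest peaks, 79 of the 130 genes had an end peak in all 12 libraries, against 85 with the full lists. Of the 21757 other genes, 44.6% did, against 48.0% with the full lists.

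The partners of KRAB zinc finger proteins were open as well. Of 16 genes for TRIM28 and its cofactors, 12 had an end peak in all 12 libraries and 15 an end or a body peak in all 12. Trim28 itself, the heterochromatin protein genes Cbx1, Cbx3 and Cbx5, and Chd4, Hdac1 and Uhrf1 had an end peak in all 12. Dnmt1, the maintenance DNA methyltransferase, had none at an end and a body peak in all 12. Setdb1 had an end peak in 4 synHPRT1 and 4 synHPRT1R libraries. Of 8 zinc finger genes known in embryonic stem cells, Zfp42, Zfp281, Zfp462 and Zfp809 had an end peak in all 12 libraries, Zfp704 in 6 and 2, Zfp57 in 5 and 2, and Zfp217 in none. The eighth, Zfp296, whose protein binds Klf4, is on chromosome 7 and 1 of the 130, and had an end peak in 1 synHPRT1 library only and no body peak.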

How the data were processed

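ATAC-seq was made from 12 libraries of mouse embryonic stem cells, and the deposited files are MACS2 narrowPeak lists, 1 per library (MACS2 2.1.0, Bowtie2 2.2.9 and SAMtools 1.9, build GRCm38, per the submitters' processing notes). Each peak has an integer score, a fold enrichment ratio, and −log10 p and q, all from the authors' peak caller; the caller's settings, the treatment of multiply mapped reads and any Tn5 shift are not stated in the sources used here. The lists hold no read depth. Genes and starts came from RefSeq (GRCm38.p6). A peak counted where it overlapped a window by 1 bp. Presence per library was computed in Python 3.11.15 with scipy 1.17.1, and genotypes were compared by two-sided Fisher's exact tests per gene with Benjamini-Hochberg adjustment over every gene with between 1 and 11 peak-bearing libraries, checked on simulated data. Alternatives were other windows, stricter peaks, equal list lengths, summits, other cluster distances, a replicate block and each library left out. Genes named are those nearest to 6 end libraries, with the highest and lowest folds, without end peaks, with the densest bodies, at the edges of runs, and well known. The rule for the members uses symbol and chromosome and no measured value. The choice of that rule, of the lists and of the motifs was still made with earlier results of these data known. Protein sequences were not used here.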

Additional observations from a re-analysis of the deposited data

Results flagged for a closer look

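In 30 sets of 6 libraries looked at, 2 values stood far from the other 5, and chance alone sets apart about 1 in 20 such sets. The share of the 116 genes with a peak at an annotated start was 86.2% in synHPRT1R clone 1 replicate 3, the lowest of its genotype, with the other 5 between 90.5% and 92.2%. The share of the 24 isolated genes with a peak at the 3′ end was 8.33% in synHPRT1 clone 2 replicate 1, and 0% in each of the other 5 synHPRT1 libraries, a difference of few genes.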

How the results depend on the processing

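The count of genes with an end peak in all 12 libraries kept within 1.5 times of its value of 85 under all 18 alternatives, leaving out any library included, and the counts of genes called between genotypes stayed at 0. The numbers of the replicates do not pair the samples: same-numbered libraries had correlations of -0.0414 to 0.0224 in their deviations, and the replicate block also called 0 at ends and 0 in bodies. At 500 bp, 25 genes had no body peak, against 58 as reported, the share of genes with an end peak was 75.9%, that with a body peak 57.4% and their difference 18.5 points; at 2 kb genes without an end peak were 7, the shares 87.8% and 33.0% and the difference 54.7 points. With −log10 q of at least 5 the shares were 73.3% and 33.1%, and with equal list lengths 76.7% and 34.9%, against 80.1% and 39.1% as reported. Without body peaks at ends of other genes the body share was 35.0% and the difference 45.1 points. Without body peaks near annotated starts, an alternative chosen after seeing the data, 19 genes had a body peak in all 12 libraries, the share was 27.9% and the difference 52.2 points. At annotated starts, also chosen after seeing the data, the share was 91.2%, and 3 genes had no peak.

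The clustered minus isolated difference at ends, 6.08 points, was 0.129 at 2 kb, 1.8 with clusters of up to 50 kb, 2.07 with clusters of up to 200 kb, 12.5 on chromosome 7 alone and -7.90 on chromosome 13 alone. The difference in bodies, -2.85 points, changed sign to 1.15 at 2 kb, 1.32 with −log10 q of at least 5 and 4.21 with clusters of up to 200 kb. The cause was not tested for any of these. An unlisted peak may be a peak below the threshold of a shallow library, and the depth that sets this is unknown.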
